A study of Homo sapiens with 6 samples.

Results

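The genes described here encode splicing factors: heterogeneous nuclear ribonucleoproteins (hnRNPs), SR proteins and proteins of the small nuclear ribonucleoproteins (snRNPs) and their close partners. They were chosen as 50 named genes, and every probe set whose annotation named exactly 1 gene, and that gene among them, was taken. This gave 203 of 49293 tested probe sets and 49 of 18132 measured genes. There were 17 hnRNP genes with 74 probe sets, 11 SR genes with 62, and 21 snRNP and core genes with 67. The gene of the listed set without a one-gene probe set is U2AF1, whose probe sets also name a near-identical locus.

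The arrays profiled RNA of SH-SY5Y, an established cell line from a human neuroblastoma, grown in serum-containing MEM and F12 medium. Endosulfan is an organochlorine insecticide and an antagonist of GABA-gated chloride channels. The endosulfan group (3 arrays) received 3 µM for 24 h, stated to be below the LC50, and the control group (3 arrays) is labelled only as control. The records of the control arrays repeat the endosulfan treatment text, so the groups rest on the agent field of the labels, and they do not say how control cells were treated. The replicates are called biological, with no culture, passage or day named, so p-values measure the spread between these samples, which may be partly technical. Values are log2 RMA levels, which are relative to the other probe sets of the same array, so fewer cells of a type and less RNA per cell cannot be told apart.

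Pre-mRNA splicing removes introns in the spliceosome, which is built stepwise on each intron. The U1 snRNP recognises the upstream splice site, U2AF and the U2 snRNP recognise the branch point and the downstream splice site, and the U4/U6.U5 tri-snRNP brings the factors of the catalytic core. A ring of Sm proteins is the shared scaffold of U1, U2, U4 and U5. SR proteins bind exonic enhancers through RNA recognition motifs and recruit the machinery through arginine- and serine-rich domains. Many hnRNPs package nascent transcripts and repress or redirect splice site choice. In neurons, a switch from PTBP1 to PTBP2 accompanies differentiation.

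The cell type label was checked first. All 13 measured neuroblast markers lay above the median level of all probe sets. Their mean ran from 11.10 to 11.30 in control and from 10.72 to 10.88 in endosulfan arrays. An unadjusted p below 0.05 was reached by 5 of the 13, all lower in endosulfan arrays. Of all genes 10.5% were lower at that p, and 13.2% in a fit restricted to levels above the median. The 5 were DCX (-1.55), ISL1 (-1.33), ELAVL4 (-1.09), STMN2 (-1.05) and GATA3 (-0.35). The first 4 had lower log2 fold changes than any of the 49 splicing factor genes. The transcription factors PHOX2A (0.27), GATA2 (0.06) and HAND2 (-0.01) were not lower beyond their spread. Of the remaining markers, CHGB was at -0.31, and CHGA (0.02), TH (0.13), DBH (0.14) and TUBB3 (0.14) were level or slightly higher. The part of these marker differences in the results below was not tested. The marker lists of haematopoietic, epithelial, endothelial, fibroblast and glial cells had means between 3.83 and 5.68 on every array, with ranges that overlapped between the groups. Identical arrays were not found. Across probe sets, the correlation between arrays (Pearson's r) was 0.985 to 0.995 within groups and 0.964 to 0.994 between them.

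The arrays also differed in their own controls. Poly-A spike-ins, bacterial transcripts added to the RNA before labelling, had a mean log2 level of 6.13, 7.73 and 5.84 in control 1 to 3 and of 7.81, 7.73 and 8.80 in endosulfan 1 to 3. The groups differed by 1.55, with an exact permutation p of 0.2, where 0.1 is the smallest p that 3 arrays against 3 allow. The first principal component, with 63.9% of the variance, was lowest in control 1 (-71.6) and highest in endosulfan 1 (61.8), and control 2 (-2.33) lay beside endosulfan 2 (-1.81). For GAPDH, the excess of the 3′ over the 5′ control probe set, a measure of RNA integrity, was 0.75 ± 0.06 (SD, n = 3) under control and 0.84 ± 0.04 (SD, n = 3) under endosulfan conditions (exact permutation p = 0.1). The same excess for beta-actin overlapped between the groups, at 3.59 ± 0.07 (SD, n = 3) and 3.67 ± 0.10 (SD, n = 3; exact permutation p = 0.3). The part of these measures in the differences below was not tested.

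Upstream sequence was available in the RefSeq table of build GRCh38.p14 for 44 of the 50 listed genes, as 61 windows of the 250 bases before a transcript start. The 4 windows below belong to genes whose control and endosulfan arrays did not overlap and that had a single window. They show how unlike the upstream sequence of such genes can be. Capitals mark matches, on either strand, to the searched words, and each sequence is written in the direction of transcription.
HNRNPM, chr19:8444725-8444974, plus strand: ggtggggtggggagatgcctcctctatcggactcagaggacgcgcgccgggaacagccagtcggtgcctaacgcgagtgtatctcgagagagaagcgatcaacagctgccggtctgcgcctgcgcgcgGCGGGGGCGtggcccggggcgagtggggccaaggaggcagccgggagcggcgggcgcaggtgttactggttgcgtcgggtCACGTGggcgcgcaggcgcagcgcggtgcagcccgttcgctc
PRPF8, chr17:1684868-1685117, minus strand: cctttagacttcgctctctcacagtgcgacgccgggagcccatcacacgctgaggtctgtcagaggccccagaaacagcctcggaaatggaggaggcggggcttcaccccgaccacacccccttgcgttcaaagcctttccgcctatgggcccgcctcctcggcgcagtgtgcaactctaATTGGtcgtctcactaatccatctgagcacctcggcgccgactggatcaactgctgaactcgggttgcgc
SNRPF, chr12:95858702-95858951, plus strand: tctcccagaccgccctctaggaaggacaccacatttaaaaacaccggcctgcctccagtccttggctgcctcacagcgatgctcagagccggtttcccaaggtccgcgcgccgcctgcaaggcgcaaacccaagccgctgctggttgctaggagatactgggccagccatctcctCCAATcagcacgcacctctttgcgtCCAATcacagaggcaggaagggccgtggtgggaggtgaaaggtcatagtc
SNRNP70, chr19:49085201-49085450, plus strand: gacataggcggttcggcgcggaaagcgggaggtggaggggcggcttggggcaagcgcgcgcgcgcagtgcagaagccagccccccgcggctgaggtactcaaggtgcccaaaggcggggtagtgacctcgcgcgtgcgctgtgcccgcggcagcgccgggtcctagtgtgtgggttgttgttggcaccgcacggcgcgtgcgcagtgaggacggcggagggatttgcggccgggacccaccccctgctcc

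The words searched on both strands were GCGTGGGCG and GCGGGGGCG (EGR), CCAAT, TGACGTCA (CRE), CCGGAAG (ETS), GCGCA followed by its reverse complement (NRF1), CACGTG (E-box) and TATAAA. The window of HNRNPM held an EGR and an E-box word, that of PRPF8 a CCAAT word on the opposite strand, that of SNRPF a pair of CCAAT words, and that of SNRNP70 none. The ETS word was in 13 of the 61 windows (21.3%), against 8.52% of all windows and 10.8% of those of measured genes. It was in 9 of 24 snRNP and core windows (37.5%), 2 of 11 SR windows (18.2%) and 2 of 26 hnRNP windows (7.69%). CCAAT was in 14 of the 26 hnRNP windows (53.8%), 1 of 11 SR windows (9.09%) and 5 of 24 snRNP and core windows (20.8%), against 32.8% of windows of measured genes. The E-box word was in 9 of the 61 (14.8%; 7.38% for measured genes) and the EGR words in 4 (6.56%; 7.16%). Windows of 1 gene can overlap, these shares were not tested, and a match describes letters and not a bound site.

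Most splicing factor genes had lower values in endosulfan-exposed cells, but none passed the test. With each gene represented by its brightest probe set, 33 of 49 were on the lower side (67.3%), against 39.8% of all genes. The median log2 fold change was -0.28, against 0.05 for all genes and 0.04 for genes above the median level, among which all 49 lay. By limma with Benjamini-Hochberg adjustment, 0 of 49 genes had an adjusted p below 0.05 (background 0.00552% of genes), and the smallest was 0.199. At an unadjusted p below 0.05 there were 12 lower genes (24.5%, background 10.5%) and 3 higher ones (6.12%, background 6.64%). In a fit restricted to probe sets above the median level, 11 of the 49 were lower at that p (22.4%, background 13.2%). A fold of at least 1.5 was reached by 9 genes, all lower (18.4%, background 7.09% for lower and 1.13% for higher genes). Among all genes above the median level, 10.4% were lower by such a fold.

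Separation of the arrays was not more common than elsewhere. In 9 of 49 genes the groups did not overlap (18.4%), against 22.6% of all genes and 25.9% of those above the median level. The endosulfan arrays were all below control for SNRPD1, SNRPD2, SNRPD3, SF3B1, PRPF8 and HNRNPM (6 genes, background 10.2%). They were all above control for HNRNPL, SNRPF and SNRNP70 (3 genes, background 12.4%).

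Single probe sets gave a similar picture. Of the 203, 136 were on the lower side. At an unadjusted p below 0.05 there were 36 lower probe sets (17.7%, background 9.21%) and 9 higher ones (4.43%, background 6.3%). With the fit restricted to probe sets above the median level, 27 of 170 were lower at that p (15.9%, background 12.7%). None of the 203 had an adjusted p below 0.05 by limma with Benjamini-Hochberg adjustment (background 0.00811%, smallest 0.215). The count of 36 moved with the choice of arrays, as did the share of all probe sets that were lower at that p. It was 11 without control 1 (all probe sets 5.74%), 18 without control 3 (7.46%), 13 without endosulfan 1 (5.97%), 67 without endosulfan 2 (11.5%) and 12 without endosulfan 3 (5.64%). Without both control 1 and endosulfan 1 it was 10 (4.94%). The count of 9 higher probe sets was 5 without control 3 (all probe sets 3.79%), 15 without endosulfan 1 (3.43%) and 16 without control 1 and endosulfan 1 (3.52%). A fit that held the spike-in level as a covariate left 1 lower and 1 higher probe set (all probe sets 1.14% and 0.893%). The spike-in level itself differed between the groups by 1.55, so this covariate also takes up part of the group difference. Here and below, that fit cannot fully tell the spike-in level and the treatment apart.

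**Figure D1:**
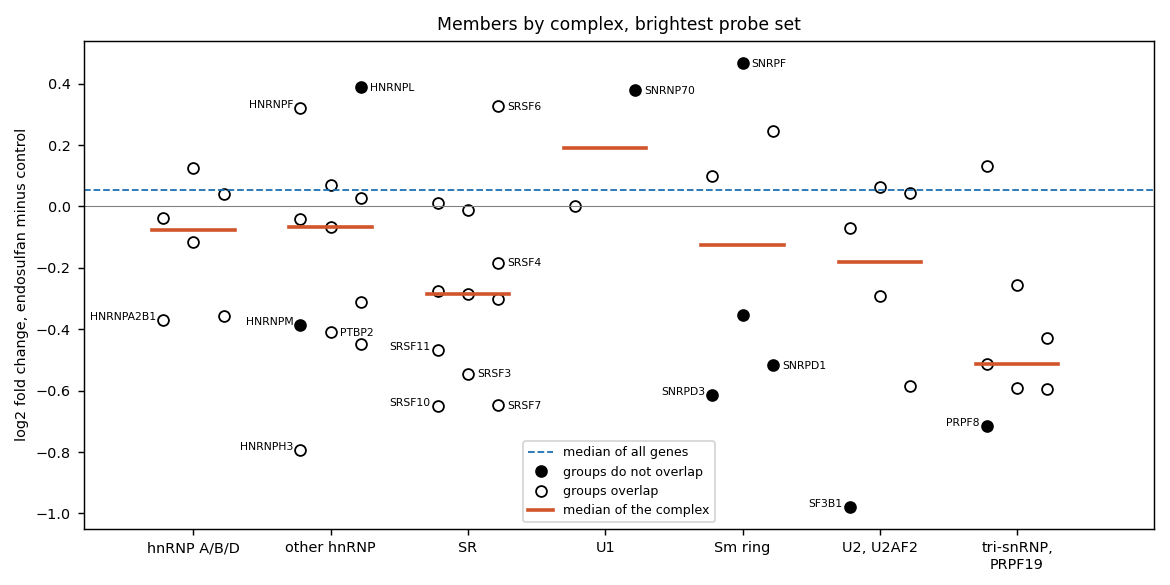
Log2 fold change (endosulfan minus control) of each of the 49 genes' brightest probe set, grouped by complex. Names are given for genes described with all their values, filled points are genes whose control and endosulfan arrays do not overlap, orange bars are medians and the dashed line is the median of all genes (0.05); the tri-snRNP group has the lowest median, -0.51.

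The hnRNP genes had a median near 0, though more of them were on the lower side than of all genes. Of the 17, 11 were on the lower side (64.7%, all genes 39.8%), with a median of -0.07 (all genes 0.05). At an unadjusted p below 0.05 there was 1 lower and 1 higher gene (5.88% each; all genes 10.5% lower and 6.64% higher). Adjusted p-values (limma, Benjamini-Hochberg) ran from 0.25 to 0.928. The 6 genes of the A/B/D type had a median of -0.08, and the other 11 a median of -0.07. Without control 1 and endosulfan 1 the median of the 17 was 0.14.

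HNRNPH3, a relative of the G-tract binding hnRNP H and F, had the lowest fold change of the class. Its values were 8.04, 7.23 and 7.96 in control 1 to 3 and 6.49, 7.49 and 6.88 in endosulfan 1 to 3. The difference was -0.79 ± 0.30 (SE), or 1.73-fold lower, and endosulfan 2 lay above control 2, so the groups overlapped. With the spike-in covariate it was -0.24. All 3 of its probe sets were on the lower side. HNRNPA2B1, which encodes A2 and B1, proteins of the core hnRNP particle, was at 11.55, 11.16 and 11.10 in control arrays and at 10.49, 11.20 and 11.02 in endosulfan arrays. Its difference was -0.37 ± 0.21 (SE), and the groups overlapped. It was -0.16 without endosulfan 1, -0.23 without control 1 and -0.02 without both.

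HNRNPL and HNRNPF lay on the higher side. HNRNPL, which binds CA-rich elements, was at 9.27, 9.78 and 9.54 in control 1 to 3 and at 9.89, 9.92 and 9.94 in endosulfan 1 to 3. The endosulfan arrays were nearly level and all above control, with a difference of 0.39 ± 0.14 (SE) and an adjusted p (limma, Benjamini-Hochberg) of 0.25. Without control 1 it was 0.26. Both of its one-gene probe sets were on the higher side. HNRNPF, which binds G-tracts, had values of 11.09, 10.83 and 10.42 in control and 11.01, 11.21 and 11.08 in endosulfan arrays. Control 1 lay among the endosulfan arrays, and the difference was 0.32 ± 0.18 (SE), or 0.14 without control 3. All 7 probe sets of HNRNPF were on the higher side, 4 of them at an unadjusted p below 0.05 (all probe sets 6.3%). They read 1 gene on the same arrays, so they are not independent.

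The side of HNRNPM depended on the probe set, and that of PTBP2 on the fit. HNRNPM, a GU-rich element binder, had 12.19, 12.25 and 12.41 in control and 12.19, 11.50 and 12.00 in endosulfan arrays on its brightest probe set. The groups were separated only narrowly, since control 1 and endosulfan 1 agree to 2 decimals, and the difference was -0.39 ± 0.18 (SE). The other 2 probe sets of HNRNPM were at 0.25 and 0.38, and the mean of its probe sets gave 0.08. PTBP2, the neuronal paralogue of PTBP1, was at 6.18, 5.62 and 6.38 in control and at 5.56, 5.87 and 5.52 in endosulfan arrays. The groups overlapped through control 2 and endosulfan 2, with a difference of -0.41 ± 0.20 (SE) that became 0.11 once the spike-in level was a covariate. Of the 3 probe sets of PTBP2, 2 were on the lower side. The highest, at 0.15, had a mean level of 2.49, the lowest of the 203. PTBP1, the repressor of neuronal exons, was at -0.04, with all 6 values between 11.51 and 11.70.

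The remaining hnRNP genes overlapped between groups. Their log2 fold changes ran from -0.45 for HNRNPK, a poly-C binding protein, and -0.36 for HNRNPA3 through -0.31 for HNRNPH1 and -0.12 for HNRNPA1 to 0.13 for HNRNPDL. HNRNPU, HNRNPA0, HNRNPC, HNRNPD and HNRNPR were between -0.07 and 0.07. These are values of the brightest probe sets. Over all their probe sets, HNRNPR ran from -0.50 to 0.33 and HNRNPDL from -0.46 to 0.13, and HNRNPC and HNRNPU are described further on.

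The SR class leaned to the lower side. Of the 11 genes, 9 were on the lower side, with a median of -0.29. At an unadjusted p below 0.05 there were 2 lower genes (18.2%, all genes 10.5%) and no higher one (all genes 6.64%). The groups overlapped in all 11, whereas they did not in 22.6% of all genes. Adjusted p-values (limma, Benjamini-Hochberg) ran from 0.257 to 0.972. On single probe sets 50 of 62 were on the lower side (80.6%), with a median of -0.24. The median over the 11 genes ran from -0.68 without endosulfan 2 to -0.11 without endosulfan 1 and -0.07 without control 1. It was 0.05 without both control 1 and endosulfan 1, and 0.016 once the spike-in level was a covariate. The lean was not seen in either fit, and the covariate fit cannot fully tell the spike-in level and the treatment apart.

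SRSF10 and SRSF7 reached a fold of at least 1.5. SRSF10, an SR protein that represses splicing when dephosphorylated, was at 7.44, 7.11 and 7.31 in control 1 to 3 and at 6.11, 7.17 and 6.63 in endosulfan 1 to 3. Endosulfan 1 and 3 lay below all control arrays and endosulfan 2 did not, and the difference was -0.65 ± 0.25 (SE). SRSF7, a zinc knuckle SR protein that also acts in mRNA export, was at 10.76, 9.90 and 10.05 in control and at 9.19, 10.01 and 9.56 in endosulfan arrays. Here too endosulfan 2 lay among the control arrays, with a difference of -0.65 ± 0.27 (SE). All 7 probe sets of SRSF10 and all 4 of SRSF7 were on the lower side. SRSF10 was at -0.39 without endosulfan 1 and at -0.26 by the mean of its probe sets, and SRSF7 was at -0.39 without control 1.

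SRSF3, the smallest SR protein and an export adaptor, and SRSF11, an SR-related protein, had wide spreads. SRSF3 was at 12.14, 11.18 and 11.04 in control and at 10.19, 11.65 and 10.90 in endosulfan arrays, a difference of -0.54 ± 0.40 (SE). SRSF11 was at 8.93, 8.32 and 8.63 in control and at 7.50, 8.61 and 8.37 in endosulfan arrays, a difference of -0.47 ± 0.29 (SE). In both genes control 1 was the highest array and endosulfan 1 the lowest. Without these 2 arrays the differences were 0.16 for SRSF3 and 0.01 for SRSF11.

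SRSF4 and SRSF6, closely related SR proteins, differed in side. SRSF4 was at 9.65, 9.31 and 9.33 in control and at 9.30, 9.42 and 9.02 in endosulfan arrays, with a difference of -0.18 ± 0.15 (SE) that turned to 0.04 with the spike-in covariate. SRSF6 was at 7.80, 8.17 and 7.68 in control and at 7.97, 8.41 and 8.24 in endosulfan arrays, a difference of 0.33 ± 0.17 (SE). The groups overlapped in both, and the sign for SRSF6 depended on the probe set, as given further on. Of the other SR genes, SRSF1, the founding SR protein, was at -0.30, and the paralogues TRA2A and TRA2B, which bind GAA-rich enhancers, were at -0.29 and -0.28. SRSF2 and SRSF5 were at -0.01 and 0.01.

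The snRNP and core class held most of the low p-values. Of its 21 genes, 13 were on the lower side, with a median of -0.29. At an unadjusted p below 0.05 there were 9 lower genes (42.9%, all genes 10.5%) and 2 higher ones (9.52%, all genes 6.64%). In 7 of 21 the groups did not overlap, 5 below and 2 above (33.3%, against 22.6% of all genes and 25.9% of those above the median level). Adjusted p-values (limma, Benjamini-Hochberg) ran from 0.199 to 0.994. The median was -0.07 over all 67 probe sets counted singly and -0.05 after the spike-in level entered the fit. Whether the 3 classes differ from each other was not tested.

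The tri-snRNP proteins and PRPF19 were the part of the class with the lowest median. Of 7 genes, 6 were on the lower side, with a median of -0.51. At an unadjusted p below 0.05 there were 5 lower genes (71.4%, all genes 10.5%, and 13.2% in the fit above the median level). The groups did not overlap in 1 of the 7, PRPF8 (14.3%, all genes 22.6%, genes above the median level 25.9%). The 21 probe sets of the 7 genes were on the lower side in 19 cases. PRPF8, the U5 scaffold around the catalytic core, was at 10.72, 10.05 and 10.61 in control 1 to 3 and at 9.55, 10.02 and 9.67 in endosulfan 1 to 3. All endosulfan arrays lay below control, although control 2 and endosulfan 2 were close, and the difference was -0.72 ± 0.20 (SE), or 1.64-fold lower. With the spike-in covariate it was -0.27. PRPF3 and PRPF4, proteins of U4/U6, were both at -0.59, and SNRNP200, the helicase that unwinds U4/U6, was at -0.51. PRPF19, the ubiquitin ligase that helps activate the assembled spliceosome, was at -0.43, and EFTUD2, the U5 GTPase, at -0.26. PRPF6, which bridges U5 and U4/U6, was on the other side at 0.13.

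The U2 proteins were uneven. SF3B1, which clamps the branch point, had the lowest fold change of all 49 genes. It was at 8.83, 8.07 and 8.46 in control and at 6.80, 8.02 and 7.62 in endosulfan arrays. The difference was -0.98 ± 0.32 (SE), or 1.97-fold lower, with an adjusted p (limma, Benjamini-Hochberg) of 0.22. The groups did not overlap, but endosulfan 2 was nearly level with control 2 and endosulfan 1 lay far below the other endosulfan arrays. The difference was -0.64 without endosulfan 1, -0.45 without control 1 and endosulfan 1, and -0.45 by the mean of its probe sets. SF3A3 was at -0.59 and SF3B3 at -0.29, whereas SF3A1, SF3B2 and U2AF2, the large subunit of U2AF, were between -0.07 and 0.06.

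The Sm ring split evenly by gene, with 3 genes on each side and a median of -0.13. Of its 22 probe sets, 9 of them for SNRPB, 14 were on the higher side, with a median of 0.10. SNRPD1 was at 9.36, 9.04 and 9.12 in control and at 8.51, 8.86 and 8.61 in endosulfan arrays. SNRPD3 was at 9.41, 8.83 and 9.15 in control and at 8.42, 8.73 and 8.39 in endosulfan arrays. In both, every endosulfan array lay below every control array, with differences of -0.52 ± 0.14 (SE) and -0.61 ± 0.17 (SE), the latter -0.26 with the spike-in covariate. The other probe set of SNRPD3 was at -0.05. SNRPD2 was at -0.35, so the 3 D-type Sm proteins shared a direction. SNRPF, which sits in the same ring, lay on the other side, with 11.63, 11.59 and 11.36 in control and 12.12, 11.80 and 12.07 in endosulfan arrays. Every endosulfan array was above control, with a difference of 0.47 ± 0.13 (SE). All 5 probe sets of SNRPF were on the higher side, from 0.03 to 0.47, and the brightest one described here was the highest. Of the 5, 1 had an unadjusted p below 0.05 (6.3% of all probe sets were higher at that p). SNRPE and SNRPB were at 0.25 and 0.10, with groups that overlapped, and the other probe set of SNRPE was at -0.15.

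The U1 proteins were not on the lower side. SNRNP70, which binds stem-loop I of U1 snRNA, was at 9.95, 10.23 and 10.25 in control and at 10.60, 10.53 and 10.44 in endosulfan arrays. The groups did not overlap, and the difference was 0.38 ± 0.12 (SE). Its 2 bright probe sets held identical values on every array and are 1 measurement, although both enter the probe set counts above. SNRPA, the U1 A protein, was at 0.00.

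**Figure D2:**
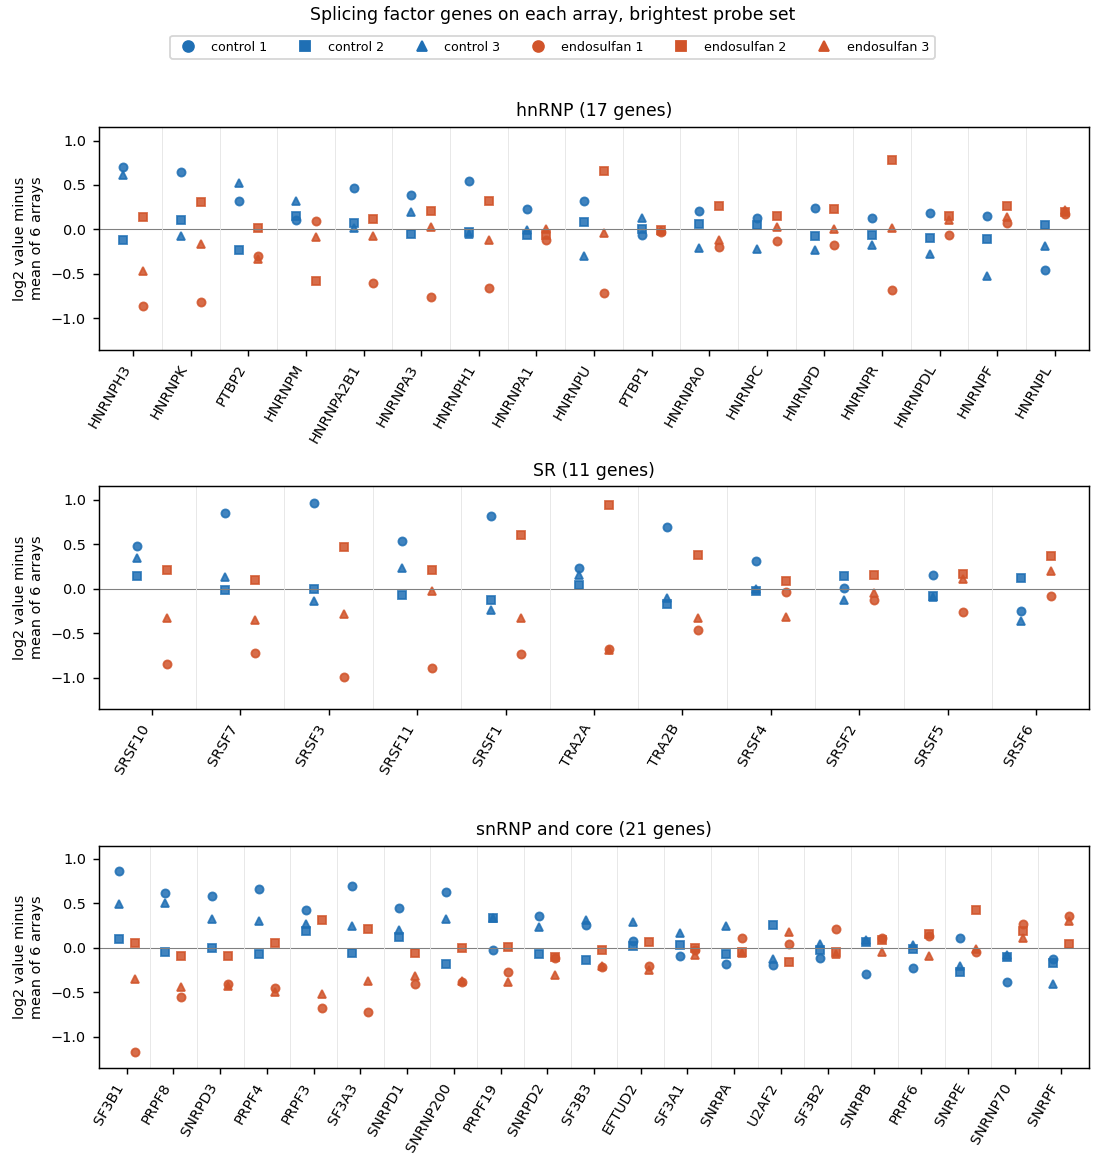
Log2 value on each array minus the gene's mean over 6 arrays, for the brightest probe set of each of the 49 genes; blue is control, orange endosulfan, and the marker shape gives the replicate number. In many SR and hnRNP genes control 1 (blue circle) is at the top, endosulfan 1 (orange circle) at the bottom and endosulfan 2 (orange square) among or above the control arrays.

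The splicing factors shared an order of arrays within the endosulfan group. Endosulfan 2 was the highest endosulfan array in 40 of 49 genes (81.6%), against 30.9% of all genes and 36.7% of genes above the median level. Endosulfan 1 was the lowest in 32 of 49 (65.3%), against 28.8% of all genes. In the control group, control 1 was the highest array in 33 of 49 (67.3%), against 33.3% of all genes. Genes share arrays, so these counts are not independent observations.

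The order was shared to different degrees by the classes. Endosulfan 2 was the highest endosulfan array in 11 of 11 SR genes, 14 of 17 hnRNP genes and 15 of 21 snRNP and core genes. Endosulfan 1 was the lowest in 9 of 11, 15 of 17 and 8 of 21. The gap between endosulfan 1 and 2, a spread within the group, exceeded the difference between the groups in 30 of the 49 genes (61.2%). That share was near the 59.7% of all genes and the 55.9% of those above the median level. By class it was 10 of 11 SR genes (90.9%), 12 of 17 hnRNP genes (70.6%) and 8 of 21 snRNP and core genes (38.1%). The median size of the gap was 0.85 in SR genes and 0.41 over the 49 genes, against 0.22 for all genes. TRA2A, for example, was at 7.22 in endosulfan 1, 8.84 in endosulfan 2 and 7.21 in endosulfan 3, and its control arrays lay between 7.94 and 8.13.

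Class means showed the same. For each gene the value on an array was taken relative to the gene's mean over 6 arrays. The SR mean was 0.44, -0.00 and -0.02 in control 1 to 3 and -0.53, 0.33 and -0.22 in endosulfan 1 to 3. The hnRNP mean was 0.25, -0.01 and -0.03 in control and -0.34, 0.18 and -0.05 in endosulfan arrays. Endosulfan 2 was thus the second highest array for SR and hnRNP genes. The snRNP and core mean was 0.19, -0.00 and 0.17 in control and -0.21, 0.05 and -0.20 in endosulfan arrays, while the mean of all genes stayed between -0.02 and 0.01. Control 1 and endosulfan 1, the 2 ends of the SR and hnRNP means, were also the 2 ends of the first principal component, and the spike-in levels of endosulfan 1 (7.81) and endosulfan 2 (7.73) were close. The GAPDH 3′ excess was 0.89 in endosulfan 1, the highest of the 6 arrays, and 0.82 in endosulfan 2. Its part in the order of arrays was not tested.

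**Figure D3:**
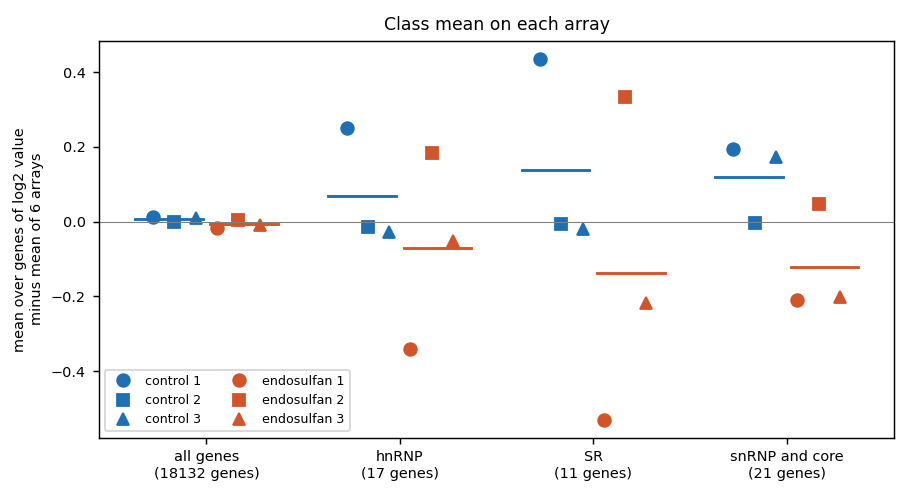
Mean over the genes of each class of the log2 value minus the gene's 6-array mean, one point per array, for hnRNP, SR, snRNP and core genes and all genes. The SR mean runs from -0.53 in endosulfan 1 to 0.44 in control 1, with endosulfan 2 at 0.33, whereas all genes stay near 0; horizontal bars are group means.

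Probe sets of 1 gene were set against each other, and signs differed about as often as in other genes. Of the 49 genes, 44 had several probe sets, up to 11 for SRSF5. In 20 of the 44 all probe sets were on the lower side, in 5 all were on the higher side, and in 19 (43.2%) both signs occurred, against 47.2% of all genes with several probe sets. The median span between the lowest and the highest log2 fold change of a gene was 0.41, against 0.23 for all such genes. Each of 188 probe sets was tested against the mean of its gene's other probe sets. None differed at an adjusted p below 0.05 (limma, Benjamini-Hochberg, background 0% of 33851; smallest adjusted p 0.226), and 24 (12.8%, background 14.7%) had an unadjusted p below 0.05. Of the 7 probe sets set aside because they name a listed gene and another one, 4 pair HNRNPA1 or HNRNPA3 with a pseudogene. Whether one-gene probe sets also detect transcripts of pseudogenes or paralogues was not tested, so a difference between probe sets need not be one between transcripts of the named gene.

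The widest span was that of HNRNPC, a nuclear hnRNP that binds U-tracts and guards against exonisation of Alu elements. Its brightest probe set was at 12.48, 12.40 and 12.12 in control and at 12.22, 12.50 and 12.37 in endosulfan arrays, a difference of 0.03 ± 0.14 (SE). Another probe set of HNRNPC was at 7.57, 6.71 and 6.70 in control and at 4.78, 6.62 and 5.68 in endosulfan arrays, a difference of -1.31 ± 0.44 (SE) with groups that did not overlap. The mean of its 6 probe sets gave -0.37, so the choice of probe set sets the side on which HNRNPC falls.

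SRSF6 and HNRNPU were similar in this respect. The brightest probe set of SRSF6 was at 0.33, and its other one was at 8.38, 7.38 and 7.64 in control and at 6.10, 7.81 and 6.87 in endosulfan arrays, or -0.87 ± 0.42 (SE). The 2 probe sets thus had opposite signs, and their mean was -0.27. HNRNPU, a large chromatin- and RNA-binding hnRNP, had 10.59, 10.36 and 9.98 in control and 9.56, 10.93 and 10.24 in endosulfan arrays on its brightest probe set, or -0.07 ± 0.33 (SE). Its other 9 probe sets ran from -0.73 to 0.16. The sign of the brightest one turned with the arrays used, at 0.08 without control 1 and 0.28 without endosulfan 1.

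In SRSF11, SF3B1 and SRSF3 the spans lay mostly below 0. SRSF11 ran from -0.93 to 0.10 over 6 probe sets, and the groups did not overlap on the 2 of them at -0.93 and -0.72. SF3B1 ran from -0.98 to -0.09 over 3 probe sets, the second of which was at -0.29 with all endosulfan arrays below control. SRSF3 ran from -0.91 to -0.02 over 7 probe sets. The one at -0.91 ± 0.19 (SE) was at 6.60, 6.37 and 6.48 in control and at 5.14, 5.91 and 5.68 in endosulfan arrays, so that here endosulfan 2 also lay below all control arrays, unlike on the brightest probe set. SRSF2 showed a like split, named after its values were seen, with -0.01 on the brightest probe set and -0.61 on the next.

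Level went with the size of the differences, as in the whole table. The 33 probe sets below the median level of all probe sets (4.92) had a median absolute log2 fold change of 0.10, and 1 of them had an unadjusted p below 0.05 (3.03%). Of all probe sets at such levels 8.13% had such a p, and their median absolute log2 fold change was 0.11. The 170 brighter ones had a median absolute log2 fold change of 0.29, and 44 of them had such a p (25.9%), against 0.21 and 22.9% of all probe sets at these levels.

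**Figure D4:**
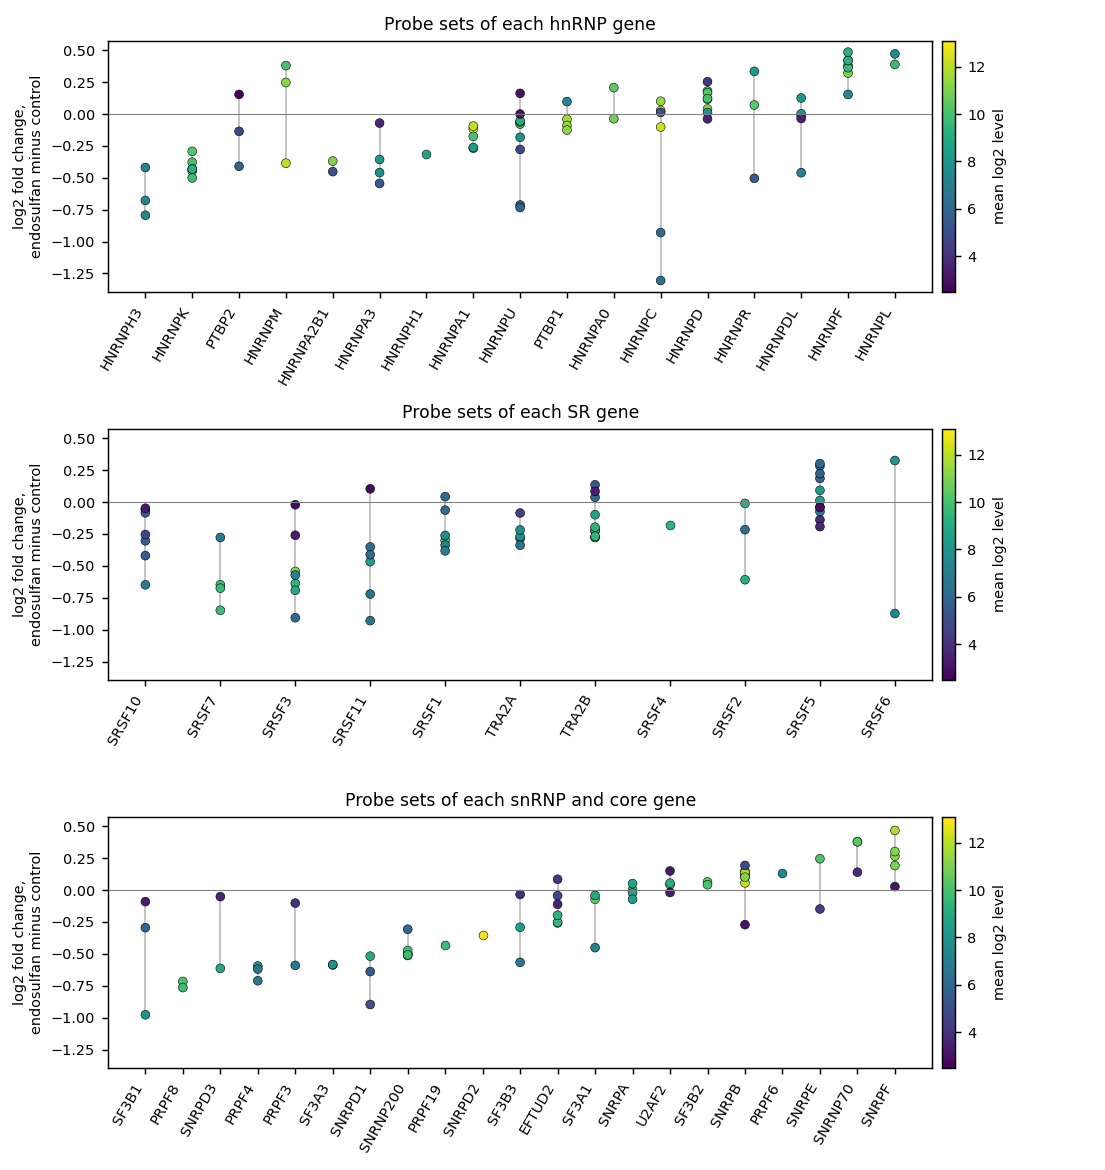
Log2 fold change (endosulfan minus control) of each of the 203 probe sets, in a column per gene joined by a grey line; colour gives the probe set's mean log2 level over 6 arrays. HNRNPC has the widest span, from -1.31 to 0.10, with its brightest probe set at 0.03.

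Other genes of the splicing machinery were read from lists of 128 genes outside the 50, of which 119 were measured. Of these, 76 were on the lower side, with a median of -0.10. At an unadjusted p below 0.05 there were 25 lower genes (21.0%, all genes 10.5%) and 11 higher ones (9.24%, all genes 6.64%). None had an adjusted p below 0.05 (limma, Benjamini-Hochberg). The 18 other SR, SR-related and kinase genes were on the lower side in 15 cases, with a median of -0.29. The 32 other snRNP proteins were on the lower side in 12 and on the higher side in 20, a median of 0.07, and 2 lower (6.25%) and 7 higher genes (21.9%) at an unadjusted p below 0.05. The 36 other assembly and step factors had 26 on the lower side and a median of -0.20, and the 12 other hnRNP genes had 9 and a median of -0.03.

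The lowest named values were among the 21 neuronal and tissue-specific splicing regulators, of which 14 were on the lower side. At an unadjusted p below 0.05 there were 6 lower genes (28.6%, all genes 10.5%) and 1 higher one (4.76%, all genes 6.64%). KHDRBS3, a STAR-family regulator of neurexin splicing, was at 9.10, 8.47 and 8.68 in control and at 7.52, 7.80 and 7.62 in endosulfan arrays. SRRM4, the activator of neuronal microexons, was at 7.03, 6.20 and 6.41 in control and at 5.13, 5.93 and 5.35 in endosulfan arrays. All endosulfan arrays lay below control in both, as they did in 10.2% of all genes. The differences were -1.10 ± 0.17 (SE) and -1.08 ± 0.27 (SE), with an adjusted p (limma, Benjamini-Hochberg) of 0.196 each. In the other lists the genes with the smallest p were also lower, namely SRSF8 (-0.98) and SRRM2 (-0.48), RBMX (-0.61) and PTBP3 (-0.60), SNRNP48 (-0.74) and DDX46 (-0.79), and CWC15 (-0.46) and DHX8 (-0.86).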

How the data were processed

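The log2 values were deposited as 1 table, with 49395 probe sets on 6 one-colour arrays. Per the submitters' processing notes it was made with Affymetrix Expression Console and RMA, which corrects background, normalizes arrays to shared quantiles and summarises probes; versions were not given in the sources used here. Signal above background was not called, and the number of arrays limits the precision. The 102 control probe sets were set aside. Gene names came from the platform annotation: 44988 probe sets named 1 gene, 1832 several and 2473 none, and 44961 gene IDs matched RefSeq (GRCh38.p14), with 0 symbols changed.

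Endosulfan was compared with control by limma 3.58.1 (lmFit, eBayes) in R 4.3.3, two-sided, with Benjamini-Hochberg adjustment over all probe sets, over 1 brightest one-gene probe set per gene, or over all within-gene differences; the threshold was an adjusted p below 0.05. The fits were tested on simulated data. Array measures were compared by exact permutation tests. Genes with values on every array are, per class, the 6 with the smallest unadjusted p, and the 6 with the widest span between probe sets; of each other list, up to 2 by smallest p. Other genes are given by fold change or in counts. Members and lists were chosen with earlier results of these data known. Alternatives covered normalization, moderation, array weights, filters, probe set choice, a block, a spike-in covariate and left-out arrays. Figures were drawn with matplotlib 3.10.9.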

Additional observations from a re-analysis of the deposited data

Results flagged for a closer look

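The 2 probe sets that name U2AF1, the small U2AF subunit that recognises the downstream splice site, together with a near-identical locus were outside the comparison. They lay slightly higher in endosulfan arrays, with every endosulfan array above every control array, by 0.0795 (11.27, 11.38 and 11.43 in control, 11.44, 11.44 and 11.45 in endosulfan 1 to 3) and by 0.0578. The hybridisation controls, labelled transcripts added to each sample before hybridisation, were higher by 0.644 on the log2 scale in endosulfan arrays, at 10.70 ± 0.19 (SD, n = 3) against 10.05 ± 0.29 (SD, n = 3) for control, with each endosulfan array above each control array and an exact permutation p of 0.1, the smallest this design allows. Both are signals in data that the comparisons did not use.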

How the results depend on the processing

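Array weights, an alternative in limma that down-weights arrays that fit less well, changed the calls most. Then 25 of the 49 genes passed, against 5915 of all 18132 genes. Of the 203 probe sets 49 passed, against 7101 of all 49293. At an unadjusted p below 0.05, 66 of the 203 were lower (all probe sets 15.3%) and 25 higher (all probe sets 17.4%). Endosulfan 3 then had a weight of 5.43 and control 3 of 2.20, so these calls rest on few arrays. In the other settings no gene or probe set of the 50 passed. The lower and higher counts of probe sets were 1 and 1 with the spike-in covariate and 10 and 16 without control 1 and endosulfan 1. With the replicate number as a block 14 were lower (all probe sets 6.23%). Deviations of same-numbered arrays from their group means correlated at -0.51, -0.40 and 0.05. These correlations also reflect the first principal component, so they cannot tell whether same-numbered cultures were paired, which the labels do not give. Leaving out each array in turn gave 11 to 67 lower and 5 to 15 higher probe sets and an SR median of -0.68 to -0.074. The snRNP and core median was -0.072 with probe sets counted singly, -0.47 with array weights and -0.050 with the covariate. Of 300 values of 20 named genes, 272 kept direction and side and 14 reversed: HNRNPC (-0.37 by the mean of its probe sets, -0.064 with the covariate, -0.077 without control 3, -0.040 without endosulfan 2, and 0.10 at most with 1 array left out), HNRNPM (0.081) and SRSF6 (-0.27) by that mean, HNRNPU (0.17 with array weights, 0.42 without control 1 and endosulfan 1, 0.075 without control 1, 0.28 without endosulfan 1, and -0.41 at the lowest, without endosulfan 2), PTBP2 (0.11) and SRSF4 (0.042) with the covariate, and SRSF11 (0.013) and SRSF3 (0.16) without control 1 and endosulfan 1. The cause was not tested.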
